A study of Homo sapiens with 9 samples.

Results

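Newly made and total RNA were compared, across all genes with enough reads, between 24 h of SOX9 protein depletion and 0 h in human cranial neural crest cells (CNCCs), the migratory cells of the embryonic head that give rise to facial cartilage, bone and connective tissue. The CNCCs came from the established stem cell line H9 (human embryonic), edited so that the SOX9 protein carried a tag that the small molecule dTAGV-1 uses to direct it to degradation. Of the 9 samples in the series, the 6 used here were 3 at 0h and 3 at 24h of dTAGV-1. The same 3 cultures stood in both groups: S9CC13_R6 (clone S9CC13, batch R6), S9CC47_R5 (clone S9CC47, batch R5) and S9CC47_R6 (clone S9CC47, batch R6), so that 2 clones and 2 batches were covered. Values below are always given in this order of cultures. All cells carried the tag and grew in medium with BMP2, bFGF, EGF and the GSK3 inhibitor CHIR-99021. The labels give 500 nM dTAGV-1 for every sample, those at 0h included, with a time of 0h or 24h. They go with a relative SOX9 level of 100% or 0%. The methods, in contrast, describe DMSO as the vehicle of the control. The control received DMSO during the 2 h of labelling, and whether it was in DMSO for longer is not given in the sources used here. Untagged cells given dTAGV-1 were not analysed here, so effects of the compound on other proteins cannot be told apart from the loss of SOX9 in these 6 samples.

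SOX9 is a transcription factor of the HMG box family. It is required for cartilage formation, where it works with SOX5 and SOX6 on the genes of the cartilage matrix, and it is among the factors that specify and maintain the neural crest. SLAM-seq separates RNA by age: 4-thiouridine (4sU), given here at 100 uM for the last 2 h, enters new transcripts and is read as T>C conversions, so that T>C reads count mostly RNA made during labelling and unconverted reads count mostly older RNA. Libraries sampled the 3′ ends of transcripts. Total reads per sample ranged from 16955633 to 28782678 and T>C reads from 3411782 to 5475800. The T>C share of reads was 18.5% to 20.1% at 0h and 19.8% to 21.3% at 24h.

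All 16 cranial neural crest markers were measured, 14 of them at 1 or more CPM (counts scaled to library size) of total reads in all 6 samples. The pluripotency genes POU5F1 and NANOG were at 0 and at most 0.156 CPM. Of the 8 pluripotency markers 3 were at 1 CPM or more in all 6 samples, namely DPPA4 (34.2 to 44.6 CPM), DNMT3B (18.8 to 24.96 CPM) and LIN28A (315 to 374 CPM at 0h and 241 to 264 at 24h), and LIN28A was called lower in T>C reads (-0.35, DESeq2 adjusted p = 0.00706). Neural progenitor markers summed to at most 2.49 CPM. Since these are bulk samples, fewer cells of a type and less RNA per cell cannot be told apart.

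Of the 12037 protein-coding genes that reached 1 CPM of T>C reads in 3 or more samples (of all 9), 599 passed an adjusted p under 0.1 (called, DESeq2), which is 4.98% of the genes tested. Of these, 312 (2.59%) had fewer T>C reads at 24h and 287 (2.38%) had more. The median size of the change was 0.64 among the called falls and 0.67 among the called rises on the log2 scale, 82 falls and 69 rises exceeded 2-fold, and 26 falls and 11 rises exceeded 4-fold. The median over all genes tested was 0.00. In all 3 cultures 584 of the 599 called genes moved in the fitted direction. The calls and the fitted direction come from these same cultures, so this count is a description and no independent check. The number of calls depended on the cultures included. Leaving out S9CC13_R6, S9CC47_R5 or S9CC47_R6 gave 64, 259 and 93 calls when the surrogate variable was estimated again, and 168, 416 and 160 when the surrogate variable was dropped. The dropped form, chosen after seeing the data, is the one meant below wherever a call is said to hold or be lost with a culture left out, unless the other form is named. Of the 186 called genes named by rule, 87, 111 and 83 stayed called in the dropped form and 36, 101 and 57 in the other. Of the 599 genes, 119 were called in all 3 of these, and 299 were called in all 9 other analyses of the full set of samples.

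**Figure D1:**
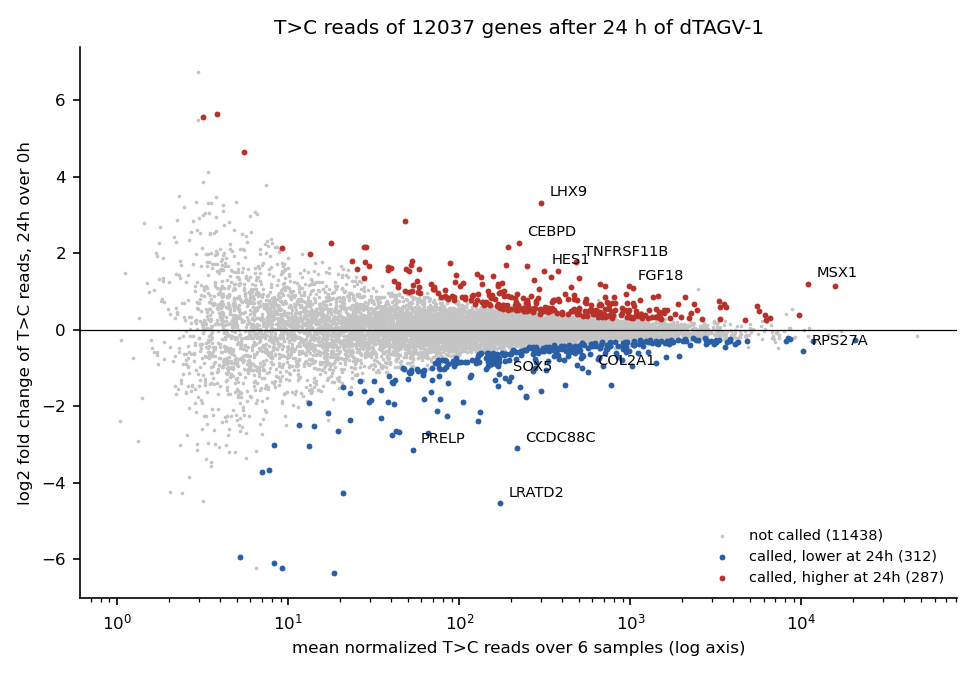
The horizontal axis is the mean number of normalized T>C reads over the 6 samples (log axis) and the vertical axis the log2 fold change at 24h over 0h, with 1 point per gene. The 312 called falls are blue, the 287 called rises red and all other genes grey, and called changes grow smaller as reads per gene increase.

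Among called genes with a mean of 50 or more T>C reads and 1 direction in all cultures, the 15 largest falls included a matrix proteoglycan, a WNT regulator and an integrin. PRELP, a leucine-rich repeat proteoglycan of cartilage and basement membranes (chromosome 1, 203475806 to 203491352, hg38), had 90.6, 106 and 93.7 normalized T>C reads at 0h and 13.3, 6.23 and 9.63 at 24h. CCDC88C, which codes for the Dishevelled-binding protein DAPLE (chromosome 14, 91271323 to 91417844), went from 430.3, 297 and 443 reads to 50.3, 33.2 and 48.9. ITGA6, the integrin subunit that pairs with beta chains to bind laminin (chromosome 2, 172427354 to 172506459), went from 154, 105 and 80.0 to 20.9, 19.7 and 13.3. For each of these genes every 24h value lay below every 0h value, and the falls were 8.82-fold, 8.60-fold and 6.56-fold, with log2 fold changes of -3.14 (SE 0.41, DESeq2 adjusted p = 5.35e-12), -3.10 (SE 0.21, adjusted p = 7.43e-46) and -2.71 (SE 0.42, adjusted p = 2.04e-08).

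Among the 15 largest falls were also the small GTPase RHOJ (-2.26), the Ras-like RASL12 (-2.14, whose last exon overlaps SLC51B on the other strand), the nuclear protein TRNP1 (-2.13), the basement membrane protein FREM1 (-1.88), the protocadherin PCDH1 (-1.83), the delta opioid receptor OPRD1 (-1.82), the anoctamin ANO4 (-1.75), the forkhead factor FOXD2 (-1.74), the GTPase-activating protein SRGAP3 (-1.63) and the actin-associated SYNPO (-1.60). LRATD2 (-4.54, the largest of them) and the poly(A) polymerase family member TENT5B (-2.40) complete the 15. Without the surrogate variable, FREM1 lost its call when S9CC47_R5 was left out and SRGAP3 when S9CC13_R6 was. With the surrogate variable estimated again, ITGA6, TRNP1 and SRGAP3 lost theirs without S9CC13_R6, and OPRD1 and PCDH1 lost theirs without S9CC13_R6 and without S9CC47_R6. The other falls of the 15 were called in both forms with each culture left out.

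Chosen in the same way, the 15 largest rises included a LIM homeodomain gene, a cell cycle inhibitor and an AP-1 subunit. LHX9, a developmental transcription factor (chromosome 1, 197911902 to 197935478), had 17.7, 87.1 and 37.3 normalized T>C reads at 0h and 404, 653 and 612 at 24h. CDKN1C, the cyclin-dependent kinase inhibitor p57 (chromosome 11, 2883213 to 2885775), rose from 106, 94.3 and 75.4 to 279, 328 and 244. JUN, a subunit of the AP-1 transcription factor (chromosome 1, 58776845 to 58784048), rose from 106, 127 and 107 to 365, 433 and 354. These were rises of 9.99-fold, 3.25-fold and 3.20-fold, with log2 fold changes of 3.32 (SE 0.22, DESeq2 adjusted p = 4.05e-48), 1.70 (SE 0.20, adjusted p = 2.53e-15) and 1.68 (SE 0.19, adjusted p = 4.72e-16), and in none of them did the groups overlap. The 0h values of LHX9 differed more between cultures than its 24h values did, on the log scale.

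Other genes among the 15 largest rises were CEBPD (2.28), a factor of the C/EBP family, RGS4 (2.16), which ends signalling by G proteins, GPR137C (1.80), TNFRSF11B (1.77), the secreted decoy receptor osteoprotegerin, CRISPLD2 (1.73), IGFBP5 (1.69), which binds insulin-like growth factors, HSPA1A (1.57), HES1 (1.55), a repressor induced by Notch signalling, RORB (1.54), SERPINB9 (1.53), a granzyme B inhibitor, CYP1B1 (1.47) and CITED2 (1.42). HSPA1A and its copy HSPA1B are nearly identical, so that reads of the pair may be shared between them. Without the surrogate variable, HSPA1A lost its call when S9CC13_R6 or S9CC47_R6 was left out, IGFBP5 and HES1 when S9CC47_R6 was, and RORB when S9CC13_R6 was. With the surrogate variable estimated again, CITED2, IGFBP5 and RORB lost theirs with each culture left out, HSPA1A and GPR137C without S9CC13_R6 and without S9CC47_R6, HES1, CRISPLD2 and CYP1B1 without S9CC13_R6, and RGS4 without S9CC47_R6. LHX9, CEBPD, TNFRSF11B, CDKN1C, JUN and SERPINB9 were called in both forms with each culture left out.

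**Figure D2:**
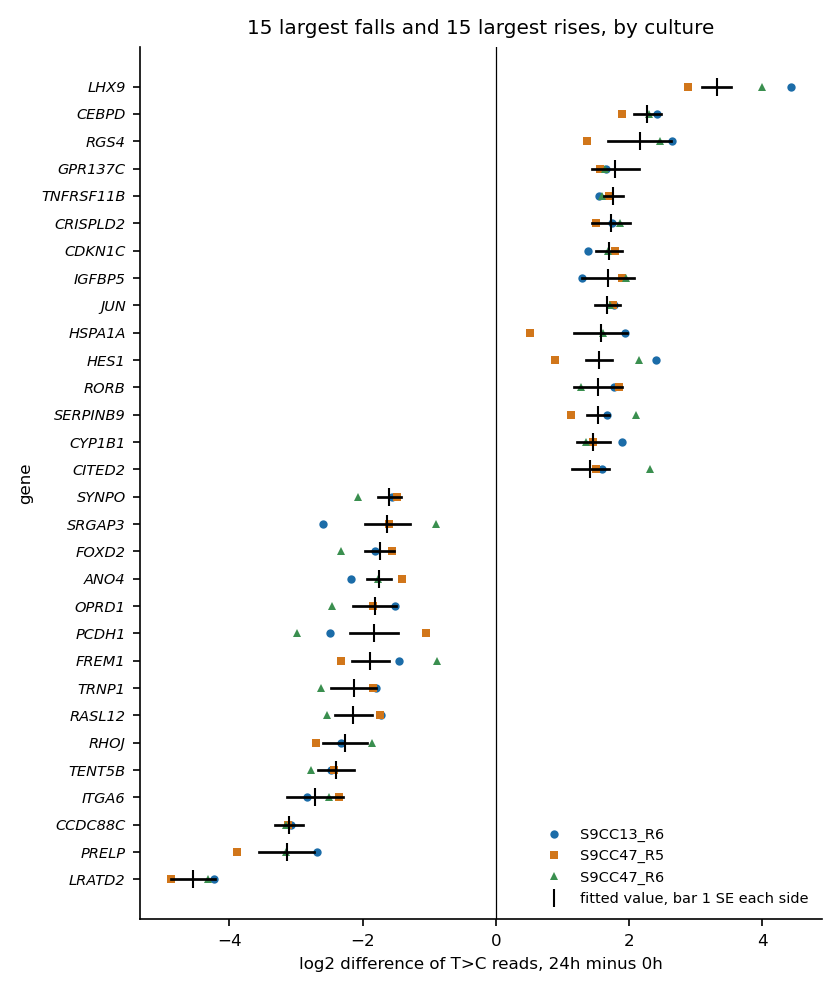
Points give the log2 difference between 24h and 0h within each culture for the 15 largest falls and 15 largest rises (1 read added to each value), and black ticks with bars give the fitted change with 1 SE on each side. The genes were chosen to have all 3 cultures on the same side of 0, so that side is set by the choice. The points of LHX9 and HES1 are farther apart than those of CCDC88C, TNFRSF11B or JUN.

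Sequences upstream of the genes with the largest changes were searched because HMG box factors of the SOX family bind short motifs around ACAAT. The search covered RefSeq promoters (250 bases before to 50 after the annotated start, GRCh38.p14), which were at hand for 9895 of the 12037 genes tested, and used AACAAT on either strand (ATTGTT on the printed strand is the same motif on the opposite one). It was present in 4.93% of the promoters of all genes tested, in 8.37% of the 251 promoters of called falls and in 5.09% of the 216 promoters of called rises. A head-to-head pair (ACAAT, a spacer of 3 to 5 bases, then ATTGT) was present in 1 of the 9895 promoters and in none of those of called genes. Among the 15 largest falls, CCDC88C and RHOJ held AACAAT or its reverse in this window, and among the 15 largest rises CITED2 did. These matches are shown with 40 bases on each side where the window allows, the motif in capitals. Promoters were at hand for 24 of the 30 genes. LRATD2, CEBPD and TNFRSF11B were left out when the matches among the 30 genes were listed, so whether they hold a match is not reported here. No such exclusion was made for the count of 24 or for the shares over called genes. The stretch shown for CCDC88C lies at chr14:91417869-91417954 (minus strand), that for RHOJ at chr14:63204296-63204381 (plus strand) and that for CITED2 at chr6:139374599-139374681 (minus strand).
CCDC88C: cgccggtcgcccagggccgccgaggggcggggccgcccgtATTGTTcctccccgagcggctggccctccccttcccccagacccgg
RHOJ: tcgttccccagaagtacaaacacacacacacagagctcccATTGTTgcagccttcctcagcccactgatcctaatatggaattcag
CITED2: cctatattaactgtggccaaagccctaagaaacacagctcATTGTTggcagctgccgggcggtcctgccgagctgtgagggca
A match of letters in a promoter is a description only, and enhancers were not searched.

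The calls among genes of the cartilage matrix were all falls. Of 13 members tested from a list of 30 such genes, 5 were called lower and 0 higher, against 2.59% and 2.38% over all genes, and the list's median log2 fold change was -0.69 against 0.00 over all genes. The list medians within the cultures were -0.70, -0.88 and -0.58. A gene can pass the minimum of T>C reads through the 0h samples alone, so these medians are a description only. COL2A1, the main collagen of cartilage fibrils, had 806, 756 and 765 normalized T>C reads at 0h and 438, 289.7 and 353 at 24h, so that the groups did not overlap (log2 fold change -1.10, SE 0.13, DESeq2 adjusted p = 8.73e-14). COL9A1, a collagen that coats these fibrils, went from 92.7, 70.1 and 92.2 to 55.0, 24.9 and 30.4 (-1.07, adjusted p = 0.0316). COL11A1, which nucleates them, went from 612, 534 and 624 to 447, 351 and 438 (-0.43, adjusted p = 0.027). MIA, a small secreted protein of cartilage, was low, with 13.5, 19.3 and 10.7 reads at 0h and 0, 5.19 and 0.741 at 24h (adjusted p = 0.0977). HAPLN1, the link protein that holds aggrecan on hyaluronan, had 158, 178 and 188 reads at 0h and 154, 112 and 170.4 at 24h and was not called (-0.44, adjusted p = 0.268). Leaving out S9CC13_R6, S9CC47_R5 or S9CC47_R6 left 3, 2 and 2 members called lower, COL2A1 and PRELP among them each time. Markers of chondrocytes summed to 377 to 414 CPM of total reads at 0h and to 205 to 266 at 24h, and COL2A1 made up most of this sum (302 to 332 CPM at 0h and 152 to 201 at 24h). HAPLN1 stood at 27.4 to 40.3 CPM and aggrecan (ACAN) at 0.117 to 0.531 CPM throughout.

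Collagens as a whole moved both ways. Of 29 collagen genes tested, 6 were called lower and 6 higher (41.4%, beside 4.98% over all genes). The falls include COL2A1, COL9A1 and COL11A1, which are also counted in the cartilage matrix list. The median of their fitted changes was 0.17, while the medians within the cultures, with 1 read added, were -0.20, -0.17 and -0.12. Beside the 3 cartilage collagens, COL18A1, a basement membrane collagen, went from 31.3, 37.5 and 33.5 normalized T>C reads to 9.48, 1.04 and 3.70 (-2.66, DESeq2 adjusted p = 0.00169), with an exon that overlaps SLC19A1 on the other strand, and COL25A1 (-1.39) and COL23A1 (-0.99) fell too. COL1A2, a chain of the type I collagen of bone and dermis, rose from 623, 657 and 622 reads to 932, 826 and 1197 (0.52, adjusted p = 0.000652), and its partner COL1A1, at far fewer reads, rose by 1.11 (adjusted p = 0.0378). COL6A1 rose from 157, 185 and 126 to 272, 349 and 209.7 (0.94, adjusted p = 3.96e-06). For its partner COL6A2 the fitted change was 1.07 (DESeq2 adjusted p = 0.0448, and 0.248 with the culture as a replicate block). COL6A2 went from 38.6, 39.9 and 68.6 reads to 92.9, 137 and 48.9, so that it fell in S9CC47_R6. COL13A1, a transmembrane collagen, rose by 0.81 (DESeq2 adjusted p = 1.94e-07). COL26A1 (0.33, adjusted p = 0.0967) was called in 2 of the 9 other analyses of all samples. Leaving out the cultures in turn gave 3, 3 and 2 collagens called lower and 3, 2 and 3 higher, with COL2A1, COL18A1 and COL13A1 called each time.

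Among proteoglycan core proteins, 1 of 24 was called lower, PRELP, and 4 were called higher (20.8%, beside 4.98% over all genes). LUM (lumican) rose from 838, 1181 and 819.6 to 1838, 1732 and 2313 normalized T>C reads (0.88, DESeq2 adjusted p = 3.05e-13). DCN (decorin), its neighbour on chromosome 12 and like it a regulator of collagen fibril growth, rose from 675, 512 and 529 to 1304, 729 and 1081 (0.85, adjusted p = 3.35e-07). Both groups of values were separate in each gene, and both calls held with each culture left out. VCAN (versican, 0.30, adjusted p = 0.00425) and BGN (biglycan, 0.58, adjusted p = 0.0487) were the other called members. BGN had 254, 272 and 359 reads at 0h against 497, 374 and 325 at 24h, and its adjusted p was 0.323 with the replicate block. SULF2, an enzyme that removes sulfate from heparan sulfate outside the cell, fell by 1.36 on the log2 scale (adjusted p = 1.44e-08), whereas CHST15, which adds sulfate to chondroitin sulfate, rose by 1.15 (adjusted p = 7.80e-06). Calls in other matrix lists, beside 4.98% over all genes, came to 13.3% for integrins (2 of 15 lower, ITGA6 and ITGA9), 12.5% for laminins (1 of 8 lower, LAMA1), 3.85% for collagen-modifying enzymes (1 of 26 lower, PLOD3) and 9.09% for metalloproteases with their inhibitors (2 of 22 higher, TIMP3 and ADAMTS4).

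**Figure D3:**
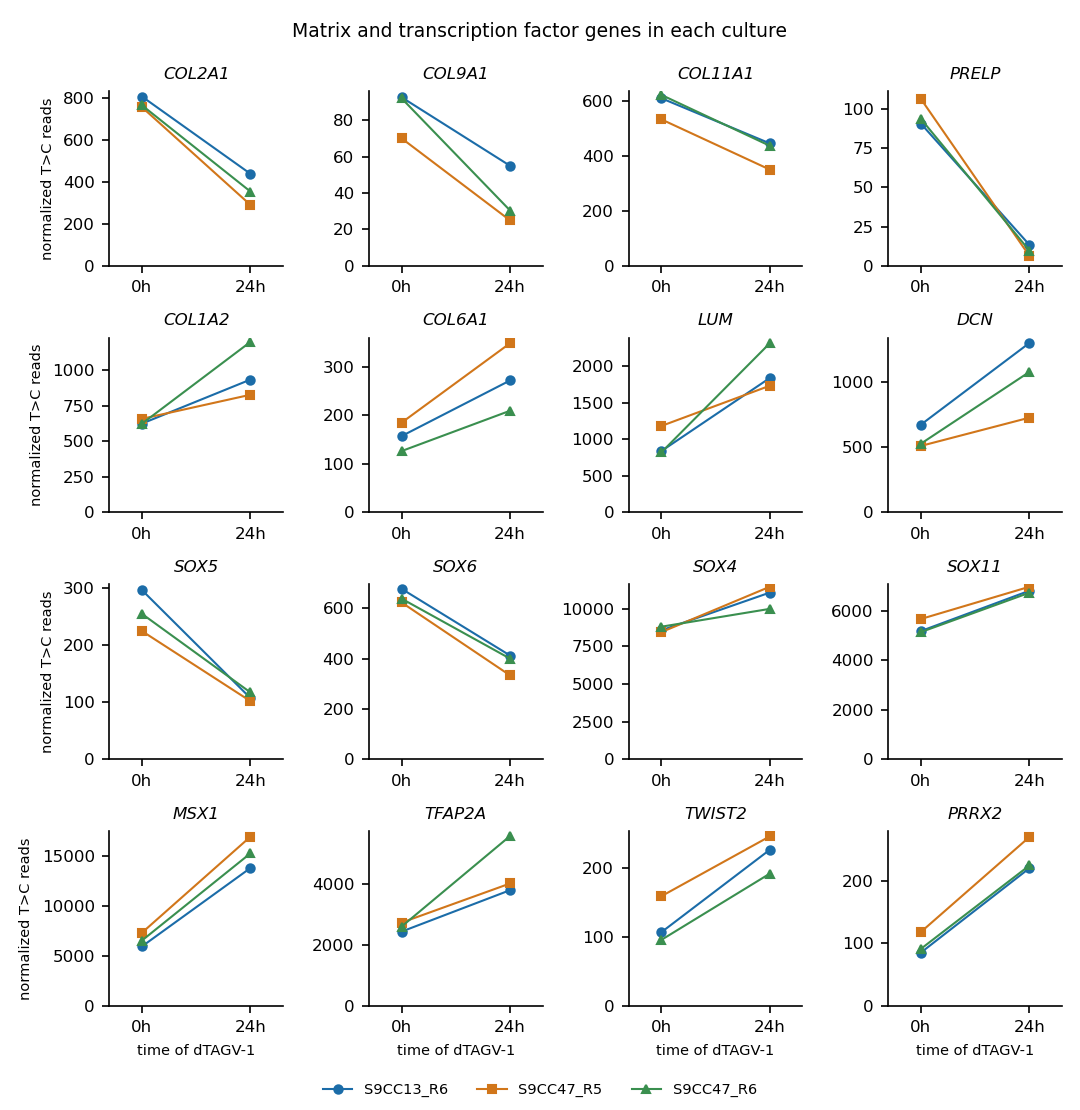
Normalized T>C reads at 0h and 24h (vertical axes from 0, linear) are joined by a line for each culture. COL2A1, COL9A1, COL11A1, PRELP, SOX5 and SOX6 fall in all 3 cultures, and COL1A2, COL6A1, LUM, DCN, SOX4, SOX11, MSX1, TFAP2A, TWIST2 and PRRX2 rise in all 3.

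SOX genes other than SOX9 moved both ways. SOX5 and SOX6, which lack an activation domain of their own and pair with SOX9 on cartilage genes, fell: SOX5 from 297, 225 and 255 normalized T>C reads to 107, 102 and 117 (-1.26, SE 0.19, DESeq2 adjusted p = 1.52e-08) and SOX6 from 678, 624 and 639 to 412, 333 and 400.1 (-0.73, SE 0.12, adjusted p = 2.59e-07). SOX4 rose from 8569.6, 8450.2 and 8814 to 11086, 11475 and 10003 (0.37, adjusted p = 0.000143), and SOX11, of the same subgroup, from 5189.7, 5679 and 5148 to 6825, 6986 and 6744 (0.38, adjusted p = 1.40e-05). The falls of SOX5 and SOX6 were called with each culture left out, and the rises of SOX4 and SOX11 in 1 of the 3 leave-outs. The transcript of SOX9 rose as well, from 9493, 9961 and 9914 to 23542, 19883 and 20923. dTAGV-1 acts on the protein, so this transcript does not check the depletion.

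Transcription factors of the cranial neural crest and face mostly rose among those called. Of 40 tested, 11 were called higher and 2 lower (32.5%, beside 4.98% over all genes), and the median was 0.18. MSX1, a homeodomain factor of the facial mesenchyme, rose from 5925, 7291 and 6513 normalized T>C reads to 13757, 16886 and 15224, a 2.30-fold change (1.20, SE 0.08, DESeq2 adjusted p = 7.20e-50). TFAP2A, an early factor of the crest, rose from 2434, 2729 and 2599 to 3794, 4014 and 5572 (0.67, adjusted p = 1.69e-08). PRRX2 and TWIST2, both factors of undifferentiated mesenchyme, rose by 1.19 and 0.95. Other rises were called for members such as MSX2, SNAI1, PAX3, TWIST1, ALX1 and TFAP2B. With the replicate block MSX2 and SNAI1 lost their calls (DESeq2 adjusted p = 0.202 and 0.165). The 2 called falls were EYA4 (-1.11, adjusted p = 0.0528) and TBX2 (-0.45, adjusted p = 0.097). With S9CC13_R6, S9CC47_R5 or S9CC47_R6 left out, 5, 5 and 4 members were called higher and 0 lower. MSX1, TFAP2A and PRRX2 were among those called each time, and TWIST2 in 1 of 3. In total reads, the 16 crest markers together stood at 3792 to 3890.5 CPM at 0h and at 4886 to 5347 at 24h. Most of the difference was MSX1, at 594 to 672 CPM and then 1349 to 1553, while NR2F1 (1019 to 1094 and 1036 to 1095) and NR2F2 (437 to 502 and 465 to 497) overlapped between the groups.

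Markers of glia and Schwann cell precursors moved the other way at a much lower level, from a sum of 12.03 to 17.5 CPM of total reads at 0h to 1.14 to 1.71 at 24h. ERBB3, the neuregulin receptor of these cells, made up most of it at 0h, with 13.4, 9.38 and 12.1 CPM at 0h and 0.641, 0.363 and 0.506 at 24h. The groups of ERBB3 did not overlap, and it was called lower in T>C reads (DESeq2 adjusted p = 7.15e-05), also with each culture left out. SOX10, the defining factor of this lineage, was at 0 to 0.118 CPM in all samples.

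Forkhead genes gave 3 falls of 18 tested (16.7%, beside 4.98% called over all genes) and no rise, with a median of -0.25. FOXC1, a factor of head mesenchyme, fell from 1600.4, 1103 and 1397 normalized T>C reads to 962, 697 and 858 (-0.62, DESeq2 adjusted p = 1.92e-08), FOXD2 by 1.74 and FOXO3, a target of insulin signalling, by 0.52. LIM homeobox genes gave 2 rises of 6 tested (33.3%, beside 4.98% over all genes). These were LHX9 and LMX1B (1.56, DESeq2 adjusted p = 0.0134, 0 of 3 leave-outs). The list's fitted median was 2.29, and its medians within the cultures were 1.67, 1.57 and 1.80. A gene can pass the minimum of T>C reads through the 24h samples alone, so this median is a description only. Numbered ZNF genes, mostly repressors, gave 6 falls of 428 tested. None of the HOX genes, which mark more posterior crest, reached the minimum of T>C reads.

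BMP and TGF-beta genes were called more often higher than lower. Of 52 tested, 9 were called higher and 3 lower (23.1%, beside 4.98% over all genes), and the median was 0.29. Of the ligands, BMP4 rose from 826, 611 and 913 normalized T>C reads to 1228, 1193 and 940.2 (0.69, DESeq2 adjusted p = 2.13e-06), INHBA, which forms activin A, rose from 10.4, 2.42 and 14.5 to 51.2, 40.5 and 47.4 (2.16, adjusted p = 0.00716), BMP7 fell from 895, 728 and 874 to 571, 413 and 446 (-0.74, adjusted p = 4.38e-08) and GDF11 fell from 880.4, 601 and 672 to 348, 355 and 289.7 (-0.99, adjusted p = 4.53e-10). The last exon of GDF11 overlaps SARNP on the other strand. ID1, ID2 and ID3, inhibitors of helix-loop-helix factors that BMP signalling induces, rose by 1.14, 1.10 and 0.51. The call of ID3 was lost with the replicate block (DESeq2 adjusted p = 0.151). ID1 had 349, 733 and 307 reads at 0h and 984, 1008 and 861 at 24h. Culture S9CC47_R5 had the highest 0h value of all 3 ID genes and the smallest rise of ID1. The inhibitory SMAD7 (1.34, adjusted p = 0.0914) and the extracellular modulator TWSG1 (0.67) rose too. With each culture left out in turn, 4, 5 and 3 members were called higher and 2 lower (BMP7 and GDF11). INHBA stayed called each time, while BMP4 lost its call without S9CC13_R6 and without S9CC47_R5.

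In the FGF and ERK feedback list, 7 of 29 members were called higher and 1 lower (27.6%, beside 4.98% over all genes). The list median was 0.20. FGF18, a ligand that acts on skeletal progenitors, rose from 519, 733 and 583 normalized T>C reads to 1339.8, 1512 and 1212 (1.14, SE 0.11, DESeq2 adjusted p = 1.73e-23). The phosphatases that switch ERK off rose as well, DUSP6 from 2497, 2565 and 2494 to 3779, 3623 and 4948 (0.59, adjusted p = 1.25e-08), DUSP4 by 0.72, DUSP5 by 1.06 and DUSP7 by 0.48. SPRED1 and SPRY1, other inhibitors of the pathway, rose by 0.50 and 0.57 (the latter at a DESeq2 adjusted p of 0.155 with the replicate block), while SPRY4 fell from 453, 433 and 475 to 309, 285 and 369 (-0.49, adjusted p = 0.0275). With the cultures left out in turn, 4, 7 and 4 members were called higher and 0 lower, FGF18, DUSP4 and DUSP6 each time.

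In the Notch list, DESeq2 called 3 of 23 members higher and 0 lower, while edgeR called 3 in each direction, and the list median was 0.00. They were the ligand JAG1 (from 105, 122 and 101 to 265, 269 and 208 normalized T>C reads, 1.23, DESeq2 adjusted p = 2.33e-08) and the targets HES1 (from 103, 144 and 145 to 552, 269 and 649.8) and HEY1 (from 792, 1015 and 705 to 1542, 1387 and 1397, 0.79, adjusted p = 1.73e-08). HES1 rose least in S9CC47_R5. Retinoic acid genes split into 3 falls and 2 rises of 16 tested (31.25% called, beside 4.98% over all genes). DHRS3, which turns retinaldehyde back into retinol, fell from 90.6, 65.3 and 76.2 to 14.2, 11.4 and 8.15, a 6.40-fold change (-2.68, adjusted p = 9.13e-08). The retinol transporter STRA6 (-0.80) and the binding protein CRABP1 (-0.51) fell, whereas CRABP2, which carries retinoic acid to its receptors, rose from 2000.5, 2814 and 1983 to 4046, 4294 and 4544 (0.75, adjusted p = 9.89e-13) and the receptor RARA by 0.64. The calls of DHRS3, STRA6, CRABP2, JAG1 and HEY1 held with each culture left out, and HES1 lost its call without S9CC47_R6.

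WNT genes gave 3 falls (RSPO1, SFRP2 and the receptor ROR1, -0.79) and 2 rises (FZD2 and the receptor FZD7, 0.79) of 40 tested. With the replicate block RSPO1 and FZD2 lost their calls (DESeq2 adjusted p = 0.145 and 0.101). Hedgehog genes gave 2 rises of 17, DISP1 and GLI3. A list of IGF and related genes gave 5 rises of 18, namely IGFBP5, IGF2BP3, IRS1, IGF2 and STC1. Of these, IGF2 overlaps INS-IGF2 on the same strand. Between 0 and 2 of the 18 were called with a culture left out. Among chemokines, cytokines and their receptors, 4 of 42 rose and none fell: TNFRSF11B, the chemokine scavenger ACKR3 (from 303, 486 and 327 to 869, 862 and 1126 normalized T>C reads, 1.21, DESeq2 adjusted p = 7.76e-16), CCL2 (1.22) and IL4R (0.55). Guidance genes of the ephrin, semaphorin, slit and netrin families gave 4 falls and 5 rises of 53, led by EFNA5 (-0.58) and PLXNA4 (0.70), and at most 1 in each direction stayed called with a culture left out. Cadherins and protocadherins gave 1 fall (PCDH1) and 2 rises (PCDH18 and PCDH7) of 33. Beside 4.98% over all genes, the called share was 12.5% for WNT genes, 11.8% for Hedgehog genes and 27.8% for the IGF list. It was 9.52% for chemokines, cytokines and their receptors, 17.0% for guidance genes and 9.09% for cadherins and protocadherins.

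Immediate-early genes gave 6 rises and 1 fall of 28 (25.0%, beside 4.98% over all genes), with a median of 0.17. JUND rose by 0.80, JUNB by 0.97 and EGR1, a zinc finger factor induced by ERK, from 100.0, 89.5 and 66.3 to 266, 116 and 180.0 normalized T>C reads (1.20, DESeq2 adjusted p = 0.00183), the smallest rise being in S9CC47_R5. IER3 fell from 1844, 1762 and 2008 to 891, 1118 and 868 (-0.88, adjusted p = 2.09e-12). The medians of the list were 0.62, -0.07 and 0.32 in the cultures, and 1, 3 and 2 members were called higher without S9CC13_R6, S9CC47_R5 and S9CC47_R6.

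Of 31 sterol synthesis and cholesterol uptake genes, DESeq2 called 7 higher and 0 lower and edgeR called 8 higher and 1 lower, with a median of 0.13. In total reads 9 were called higher and 1 lower. The called share was 22.6% in T>C reads (DESeq2) and 32.3% in total reads, beside 4.98% and 15.0% over all genes. INSIG1, the sterol sensor that holds SREBP in the endoplasmic reticulum, rose from 803, 919 and 707 to 1431, 1351 and 1022 normalized T>C reads (0.69, DESeq2 adjusted p = 8.18e-07). IDI1, an enzyme of isoprenoid synthesis, rose from 359, 462 and 308 to 672, 636 and 857 (0.81, adjusted p = 3.32e-06), and CYP51A1, MSMO1 and SC5D, enzymes of the later steps, by 0.74, 0.36 and 0.40. The last exon of CYP51A1 overlaps other annotated genes on the same strand. When the cultures were left out in turn, 3, 5 and 3 of them stayed called, INSIG1, IDI1 and CYP51A1 each time.

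Among lists of general cell functions, cytosolic ribosomal protein genes had a median of -0.14, and of 84 DESeq2 called 8 lower and 0 higher and edgeR 15 lower and 2 higher. The largest called change was that of RPS27A (from 11826, 11395 and 13085 to 7387, 9454 and 7962 normalized T>C reads, -0.56). The ribosomal list's medians were -0.10, -0.07 and -0.37 in the cultures, so S9CC47_R6 moved most, and 0, 10 and 1 members were called lower without S9CC13_R6, S9CC47_R5 and S9CC47_R6. Many of these genes have processed copies in the genome, which makes their counts uncertain. Of 71 mitosis genes 4 were called lower, among them MKI67, a marker of cycling cells (-0.32, DESeq2 adjusted p = 0.0173), and of 81 replication and G1/S genes 1 was called lower (MCM3) and 2 higher, CCND2 (0.50, adjusted p = 1.25e-08) and CDK6 (0.63, adjusted p = 0.000187), which drive entry into the cycle together. With a culture left out, at most 1 mitosis gene stayed called. The share called by DESeq2 was 9.52% for ribosomal protein, 5.63% for mitosis and 3.70% for replication genes, beside 4.98% over all genes. DESeq2 called none of 44 proteasome subunits and none of 19 interferon-stimulated genes in T>C reads, with 6 and 2 at an unadjusted p under 0.05 and 1 of each list called by edgeR. In total reads 7 proteasome subunits were called lower and 8 higher (34.1% of 44), and of the ribosomal protein genes 19 lower and 2 higher (25.0%), where the share over all genes tested was 15.0%.

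Of 82 respiratory chain genes 5 were called lower and 1 higher (7.32%, beside 4.98% over all genes). Of 37 glycolysis and hypoxia genes 2 fell, HK1 and PDK1, a share (5.41%) near the 4.98% over all genes. HK1 went from 354, 360.4 and 404 to 165, 207 and 165 normalized T>C reads (-0.99, DESeq2 adjusted p = 2.46e-07). Contractile genes gave 4 falls and 1 rise of 36 (13.9%), among them TPM1 (-0.48). The myofibroblast marker TAGLN had 31.3, 29.0 and 59.4 reads at 0h against 17.1, 10.4 and 42.2 at 24h. It lost its call with the replicate block (DESeq2 adjusted p = 0.242). The called share, beside 4.98% over all genes, was 12.1% for p53 targets (3 lower, 1 higher of 33), 11.1% for YAP and TEAD readouts (2 lower, 1 higher of 27), 10.0% for NRF2 genes (3 higher of 30, NQO1 by 0.72) and 9.68% for heat shock chaperones (2 lower, 1 higher of 31). It was 4.86% for solute carriers (6 lower, 3 higher of 185), 4.17% for potassium and voltage-gated channels (2 lower of 48, KCNK5 by -1.49) and 2.50% for ATF4 and unfolded protein response genes (1 lower of 40). Of the 599 called genes, 410 were in none of the 47 lists.

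**Figure D4:**
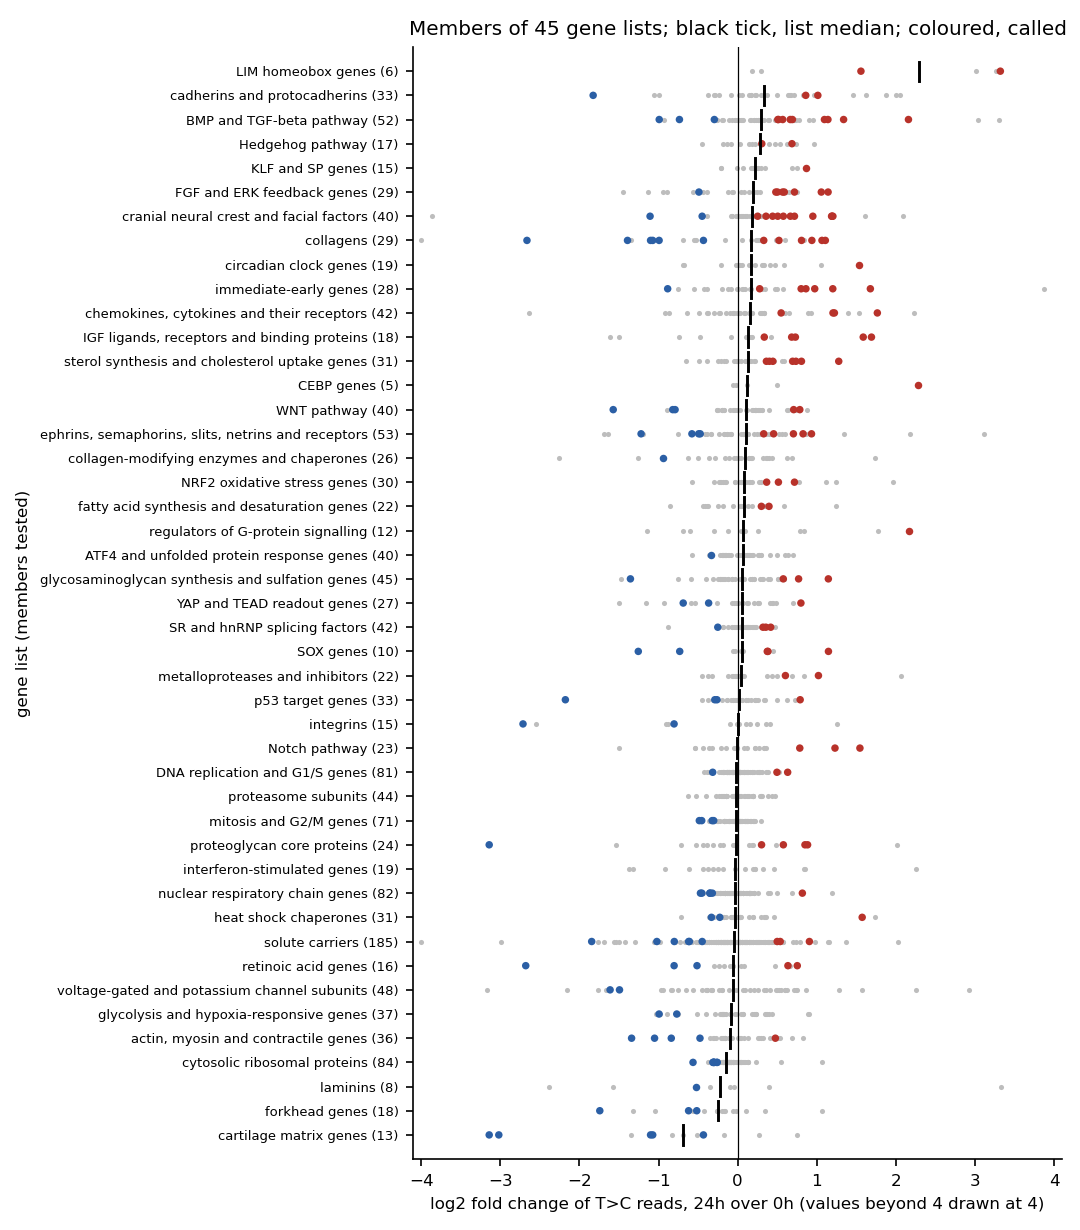
Each row is a gene list with the number of members tested and each point a member, placed by its log2 fold change of T>C reads (24h over 0h). Called falls are blue and called rises red, the black tick is the list median and the vertical line the median of all genes. The cartilage matrix list lies lowest, with a median of -0.69 over 13 members. The LIM homeobox list, with 6 members of which 2 were called, lies highest. Genes can pass the minimum of T>C reads through the 0h or the 24h samples alone, so both places are a description only. Values beyond 4 are drawn at 4, and the HOX and ZNF lists are not drawn.

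Total reads gave more calls. Of 11710 genes tested, 1751 were called (15.0%), 919 lower (7.85%) and 832 higher (7.11%), and unconverted reads gave 1396 of 11529 (12.1%). Of the 599 genes called in T>C reads, 547 were called in total reads, which is 91.3% of the T>C calls and 31.2% of the total calls, and all 547 had the same direction. Of the 1194 genes called only in total reads and tested in both, 1176 had the same sign in T>C reads and 481 had an unadjusted T>C p under 0.05. The median SE of a log2 fold change was 0.223 in T>C reads and 0.133 in total ones. T>C reads are part of total reads, so this count cannot show an independent result. With each culture left out in that order and no surrogate variable, total reads gave 305, 1312 and 381 calls, and unconverted reads 209, 1023 and 269.

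Unconverted reads are separate reads of the same libraries. Of the 599 genes, 423 were called there too, which is 70.6% of the T>C calls and 30.3% of the unconverted calls, all in the same direction, and 584 of the 591 tested in both had the same sign. Among called genes with a mean of 50 or more T>C reads, the change of unconverted reads was a smaller part of the T>C change where fewer of a gene's reads were converted. In the 180 genes with the lowest T>C share (3.19% to 24.6% of their reads) the median ratio of the log2 changes was 0.697. It was 0.772 in the next 181 and 0.878 in the 180 with the highest share (44.2% to 88.3%). Because these genes were chosen by their T>C test, their T>C changes may be overstated, which alone can lower the ratios. How much of the pattern follows from that choice was not tested. COL1A1, with 8.42% of its reads converted at 0h, rose by 1.11 in T>C reads and by 0.26 in unconverted reads (DESeq2 adjusted p = 0.235), and COL23A1, with 11.3%, fell by 0.99 and by 0.21. LHX9, with 53.8%, rose by 3.32 and by 3.07. For none of these 3 genes did the test of the difference between read classes pass.

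The test of that difference called 3 of 11561 genes (0.0259%), all with a more negative change in T>C reads, while 559 genes had an unadjusted p under 0.05. APLP2, a relative of the amyloid precursor protein, had 6383, 5118 and 5509 normalized T>C reads at 0h and 4407, 3915 and 3748 at 24h (-0.44), against 0.01 in unconverted reads (difference -0.48, SE 0.09, DESeq2 adjusted p = 0.00138). ARL6IP1, a protein that shapes the endoplasmic reticulum, changed by -0.12 in T>C reads and by 0.38 in unconverted reads (difference -0.64, SE 0.13, adjusted p = 0.00464). DSTN, the actin-severing destrin, changed by -0.41 and by -0.04 (difference -0.37, SE 0.09, adjusted p = 0.0802). With S9CC13_R6 or S9CC47_R6 left out DESeq2 called no gene, with 256 and 217 at an unadjusted p under 0.05, and with S9CC47_R5 left out it called 18. With all samples edgeR called 2. For the other genes, a p that misses the threshold does not show that the read classes changed alike.

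**Figure D5:**
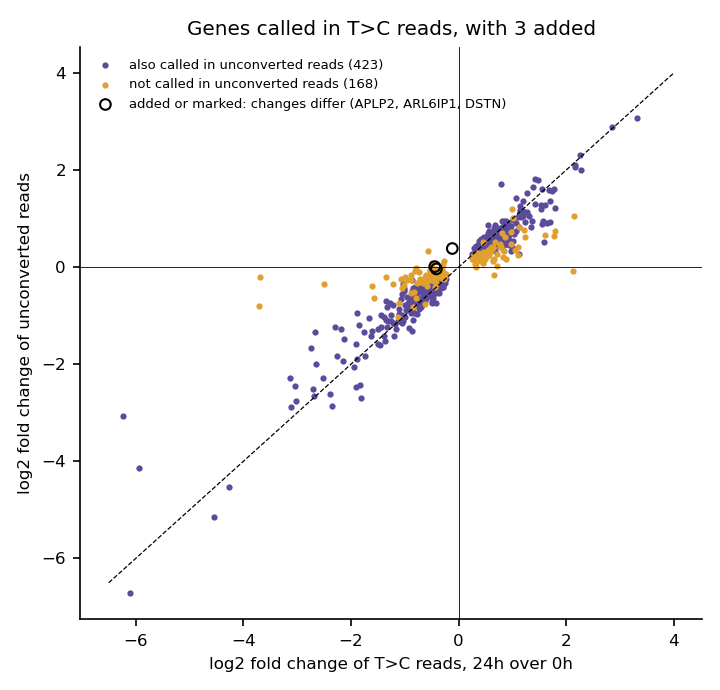
Each point is a gene called in T>C reads, placed by its log2 fold change in T>C reads (horizontal) and in unconverted reads (vertical), with the dashed line marking equal changes. The 423 genes called in both are violet and the 168 called in T>C reads and tested but not called in unconverted reads are yellow, many of the latter lying between the dashed line and 0. The circles mark APLP2, ARL6IP1 and DSTN.

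Of the genes called in total reads, 391 with a mean of 50 or more T>C reads had an unadjusted T>C p over 0.1. Among the 5 largest of these in each direction were rises of H1F0, a linker histone of quiescent cells (0.84 in total reads against 0.49 in T>C reads), LGALS1, a galectin (0.68 against 0.24), and UBE2T, a ubiquitin-conjugating enzyme (0.61 against 0.45), and falls of FOXP4 (-0.80 against -0.42), TRIM45 (-0.62 against -0.52) and RASA3 (-0.55 against -0.12). LGALS1 had 79.2, 71.3 and 40.4 normalized T>C reads at 0h and 65.4, 82.0 and 43.7 at 24h, with 8.33% of its reads converted at 0h. The T>C groups of this gene overlapped, and the difference between its read classes did not pass the test (DESeq2 adjusted p = 0.892).

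Cultures of batch R6 were more alike than the culture of batch R5. Over the 8682 genes with a mean of 50 or more T>C reads, the log2 differences between 24h and 0h correlated with r = 0.61 between S9CC13_R6 and S9CC47_R6, with r = 0.31 between S9CC13_R6 and S9CC47_R5 and with r = 0.28 between the cultures of clone S9CC47. The points of these correlations are genes of shared libraries, and the values are given as a description. Of the 599 called genes, 599, 595 and 588 moved in the fitted direction in S9CC13_R6, S9CC47_R5 and S9CC47_R6. The genes were called on these same cultures, so these counts too are a description only. Batch R5 held 1 culture, so no test could be run within it, and what is particular to that batch and to that culture cannot be told apart.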

How the data were processed

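Samples were grouped by the time in their titles, and cultures were paired by the clone and batch in the titles. The authors deposited a table of raw read counts per gene symbol for all reads and another for T>C reads. According to their methods the first read was trimmed, then mapped and counted with slamdunk. The build in the submitters' notes is hg38, and whether strand was used is not given in the sources used here. The deposited counts were raw, and counting error is the only error that depth alone sets. All 9 value columns of each table were used.

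Counts of the 9 samples entered a DESeq2 fit (1.42.0, R 4.3.3) with time, batch and 1 surrogate variable (sva 3.50.0), as in the authors' methods, keeping genes annotated as protein-coding (GENCODE release 44, matched by symbol) that reached 1 CPM in 3 samples. Genes at a Benjamini-Hochberg adjusted p under 0.1 were called. Normalized reads are counts divided by size factors. Unconverted reads are total minus T>C reads, fitted alike, and the difference between read classes was an interaction term over the 6 samples. The genes and lists were chosen with earlier results of these data known. Named were SOX9; the 15 largest falls and rises with a mean of 50 T>C reads and 1 direction in 3 of 3 cultures; up to 5 called members per list and direction, or 3 where none was called; up to 6 differences between read classes; and 5 genes per direction called in total reads only (unadjusted T>C p over 0.1). Further called list members, genes of the marker lists and other uncalled genes were named after their values were seen. Alternatives were TMM factors, edgeR 4.0.16, all biotypes, no CPM filter, no surrogate variable, the 6 samples alone, the culture as a replicate block, size factors of total reads, and each culture left out; leaving out cultures without the surrogate variable was chosen after seeing the data. Correlations of a culture's deviations from the group means at 0h and 24h were 0.141, 0.024 and 0.056 for T>C reads. Nothing states that cultures were separate differentiations within a batch, so p-values measure the spread between these samples. Results for some genes are not reported here.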

Additional observations from a re-analysis of the deposited data

How the results depend on the processing

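Replicates 1, 2 and 3 are S9CC13_R6, S9CC47_R5 and S9CC47_R6. T>C calls numbered 599 in the reported fit, 968 with edgeR, 354 with the culture as a replicate block plus a surrogate variable, and 64 to 416 with a culture left out. Total calls numbered 1751, 905 with the 6 samples alone, 831 with the replicate block plus a surrogate variable, and 163 to 1312 with a culture left out, and unconverted calls 1396, 629, 613 and 127 to 1023 in the same order. The difference between read classes gave 3 calls, 0 to 18 with a culture left out, and 2 or 3 under the other settings. The replicate block alone gave 722, 1717 and 1365 calls in T>C, total and unconverted reads. Cultures are paired by clone and batch in the labels, and the check of the pairing gave correlations near 0 in 2 of 3 cultures. Cultures left out without the surrogate variable and the replicate block with it have fewer samples or fewer degrees of freedom. What caused any of the shifts between settings was not tested.

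None of the 186 called genes named by the rule changed direction under any setting. Of these, 169 stayed called with the replicate block, 137 with the block plus a surrogate variable, and 36 to 111 with a culture left out. Size factors of total reads gave 296 falls and 303 rises in T>C reads, of which 579 were among the 599 reported calls. No surrogate variable could be fitted for total reads without S9CC47_R6, so that value is missing. T>C reads are the smaller class, and their median SE of 0.223 against 0.133 in total reads limits what could be called.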

Other observations

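Of the 591 genes called in T>C reads and tested in unconverted reads, 7 had opposite signs in these read classes. RUNDC1 changed by -0.56 in T>C reads (DESeq2 adjusted p = 0.0127) and by 0.34 in unconverted reads (adjusted p = 0.505). MED29, a subunit of the Mediator complex, changed by 0.66 (adjusted p = 0.0193) and -0.16 (adjusted p = 0.483). ICAM1, a cell adhesion molecule, changed by 2.13 (adjusted p = 0.0874) and -0.09 (adjusted p = 0.97). The others were AEN, HDGFL3, PEBP1 and RUFY1. None of the 7 was called in unconverted reads, and none passed the test of the difference between read classes, where the lowest adjusted p was 0.316 (AEN). These genes were chosen after their values were seen.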
